A study of Mus musculus with 6 samples.

Results

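The regions described here are the places at or just beyond the 3′ ends of mouse genes where Eomes was found by chromatin immunoprecipitation in at least 2 of 3 experiments. Overlapping peaks of the 3 deposited lists, sharing at least 1 bp, were joined into 84399 regions, and 20126 of these held a peak from at least 2 lists and are called reproducible. A reproducible region was taken when the deposited annotation of its highest peak was a 3′ untranslated region (3′ UTR) or a position downstream of a gene's end. This gave 425 regions, 2.11% of the reproducible ones (95% Wilson interval 1.92 to 2.32%). They comprised 232 in the 3′ UTR class and 193 in the downstream class, of which 72 lay under 1 kb, 59 between 1 and 2 kb and 62 between 2 and 3 kb past the end.

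The study set out to map Eomes binding in natural killer (NK) cells. In 3 separate experiments, spleens of C57BL/6 mice (wild type, 8 to 12 weeks old) were pooled, and NK cells purified from them were kept in 100 ng/mL IL-15 for 4 days. Each experiment had 1 library immunoprecipitated with an anti-Eomes antibody (IP) and 1 input library of the same cells without immunoprecipitation. All libraries thus shared genotype, strain, tissue and culture, and the only contrast was IP against input. Mice were pooled within an experiment, and cells that lack Eomes were not among the groups, so signal that does not depend on Eomes cannot be told apart from Eomes binding in these lists.

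Eomes is a T-box transcription factor that NK cells need to mature and to survive in the periphery, and it is a close relative of T-bet. T-box factors bind DNA through a short core, GGTGTG, usually within the longer AGGTGTGA. Transcription factors are most often studied at promoters and enhancers. The end of a gene holds the 3′ UTR, which carries signals for RNA stability and for cleavage of the transcript, and the DNA beyond it can hold enhancers of that gene or of a neighbour. A peak caller's annotation names a place on the gene map and not the gene that the place controls.

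The lists held 37456, 33841 and 46329 peak intervals in experiments 1, 2 and 3, and 2.76, 2.78 and 2.84% of these were at gene ends. The smallest pileup, the number of IP fragments at a peak, was 8, 7 and 9 fragments, so places with fewer fragments are not seen in these lists. Of the 425 regions, 349 had a peak in experiment 1, 309 in experiment 2 and 388 in experiment 3. All 3 lists held 196 regions (46.1%, 41.4 to 50.9%), and 229 were in exactly 2 lists, 116 of them in lists 1 and 3. Requiring a peak in both remaining lists when 1 was left out gave 272 regions without experiment 1, 313 without experiment 2 and 226 without experiment 3.

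Sequence could be read at those regions that overlap an annotated gene start, through the RefSeq promoter table (GRCm38.p6, 300 bp per start). Of 5 such regions, 3 held the T-box core GGTGTG in their readable letters, on either strand, and these are shown. The stretches lie at gene starts. The regions at Zfp14 and Gm31125 carry the deposited gene-end label, but no RefSeq gene end was matched to them. Each is written on the plus strand, 5′ to 3′, with the core or its complement in capitals.
Zfp14, chr7:30051474-30051503: tggaggcctctgGGTGTGatcttggaccag
Gm31125, chr4:106840279-106840308: gctgcccaggccCACACCcccagcgctccc
Exosc6, chr8:111056242-111056271: ggtggcagcgcgCACACCtaccgctctccc
At Zfp14 the core read in the plus direction, and at Gm31125 and Exosc6 it lay on the minus strand. The readable stretch was 241 bp at Zfp14, 231 bp at Gm31125 and 242 bp at Exosc6. The longer AGGTGTGA, searched on both strands, was in none of the 5. Among all 32851 promoter windows of the table, 19.0% held GGTGTG and 1.28% held AGGTGTGA, where each longer match also counts as a core match. A match is a description of the letters and not a mapped site. No region overlapped a RefSeq microRNA hairpin.

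To say which gene ends where, each region was given a host gene from the RefSeq genes. For the 3′ UTR class this is an overlapping gene, wherever in it the region lies, or else one ending at most 3000 bp before the region. For the downstream class it is a gene ending at most 3000 bp before the region. A host thus need not have the region at its 3′ end. Protein-coding genes were preferred. A host was found for 394 of 425 regions (92.7%), and 383 of these hosts were protein-coding. The regions fell on 360 different hosts, and 31 hosts had more than 1 region. For 62 regions there were at least 2 protein-coding candidates, and the nearer end decided between them.

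The highest fold enrichments of IP over background stood at Ubald2 and Pdcd1. Because the regions were chosen for having peaks, their folds are given as a description and were not tested. The region of Ubald2, which encodes a UBA-like domain protein, lay 720 bp past its end at chr11:116439189-116440405 on mm10. Its fold was 18.2 in experiment 1, 26.7 in experiment 2 and 29.2 in experiment 3 (mean 24.7 ± 5.73, SD, n = 3). Of the other reproducible gene-end regions named here, Pdcd1, Akirin1, Ctif and Cacng5 had values above its lowest, 18.2.

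Pdcd1 encodes PD-1, an inhibitory receptor of T cells and activated NK cells. Its region lay at chr1:94034918-94035679, 3007 bp past the RefSeq end, with pileups of 76, 60 and 102 fragments in experiments 1, 2 and 3. The fold was 27.0, 16.1 and 26.2 (mean 23.1 ± 6.05, SD, n = 3), lowest in experiment 2. The deposited annotation assigned this region to Neu4, a sialidase gene whose start lies 14425 bp away, since it names the nearest start. A further region in a Pdcd1 exon had folds of 18.2, 21.2 and 15.6, and an intron region was found in 2 lists at 4.72 and 4.22. No reproducible region was assigned to the Pdcd1 promoter.

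Further regions among the 10 with the lowest mean rank of fold over the 3 lists stood at Akirin1, Ctif, Cacng5, Stau2, Lypla1, Crispld2 and Zfp212. Their mean folds ran from 12.3 at Zfp212 to 15.0 at Akirin1. Akirin1 encodes a nuclear protein, and its fold was 13.2, 10.3 and 21.5, highest in experiment 3. Ctif encodes a translation initiation factor, and its fold was 13.5, 10.8 and 20.4. That region was assigned to Smad7, the inhibitory Smad of TGF-β signalling, whose start is 53406 bp away. It was the strongest of 12 reproducible regions in and around Ctif. Stau2, a double-stranded RNA-binding protein gene, had the narrowest spread of these, with 12.4, 12.1 and 15.2. Experiment 3 gave the highest value at 6 of these 7 regions, with Lypla1 the exception at 17.1, 10.05 and 12.0.

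**Figure D1:**
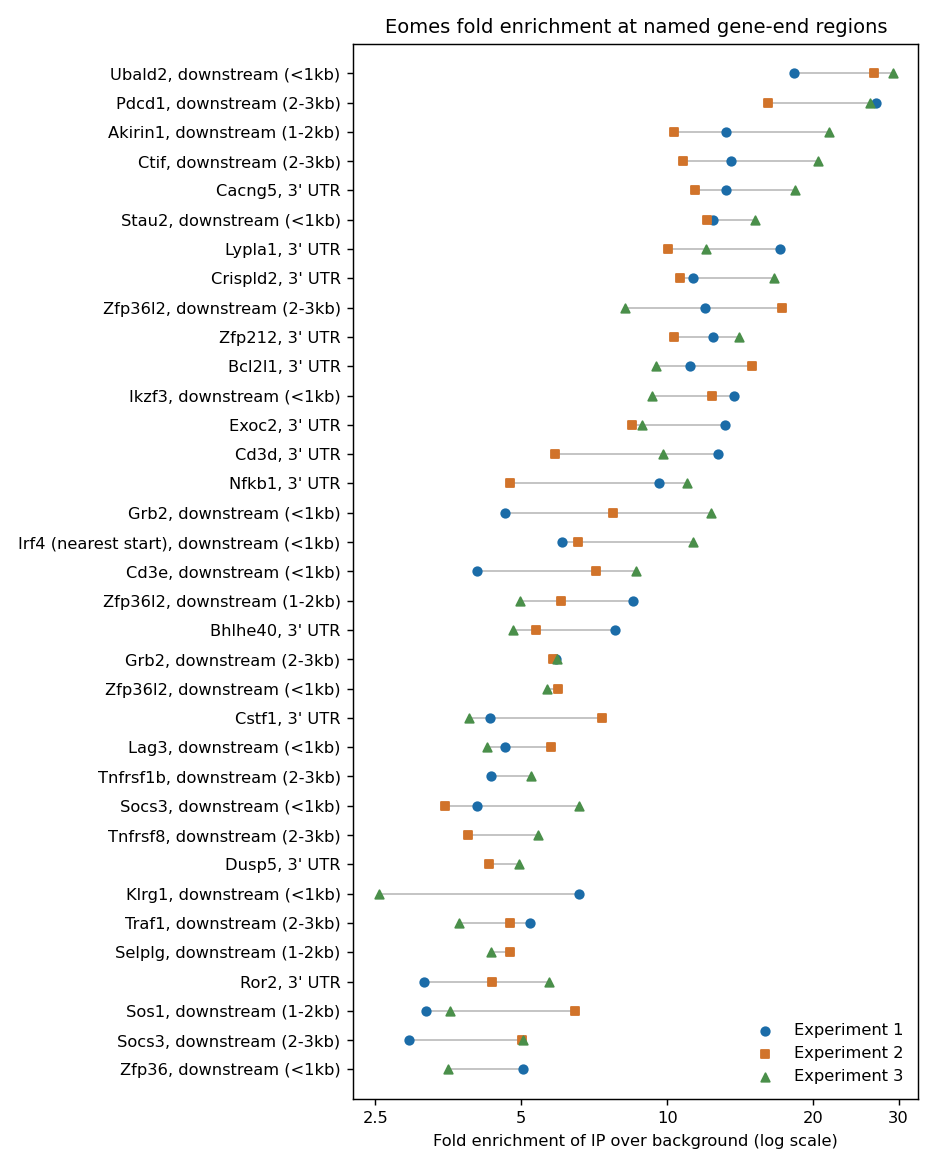
Fold enrichment of IP over background (log scale, no unit) at named gene-end regions, 1 row per region, labelled by host gene and class, with 1 point per experiment in which the region had a peak and a line spanning the points. Ubald2 and Pdcd1 lie highest, with every point above 16, and the points of most regions below Cd3d sit under 10.

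Among receptors of NK cells, 3 of 23 listed genes had a reproducible region at their end, Pdcd1, Lag3 and Klrg1. Lag3 encodes another inhibitory receptor, and its region 556 bp past the end (chr6:124903622-124903985) had folds of 4.63, 5.77 and 4.24. Klrg1, an inhibitory lectin-like receptor of mature NK cells, had folds of 6.58 in experiment 1 and 2.54 in experiment 3, with no peak in experiment 2. Its −log10 q-value in experiment 3 was 2.93, so the region was lost when at least 3 was required. The Lag3 and Klrg1 values were thus far under those at Pdcd1. Over all 20596 protein-coding genes with a known strand, 349 were hosts of a region (1.69%), which is the background for these counts.

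Over all 17 lists of genes, 21 of 420 genes with a known strand were hosts (5%, 3.29 to 7.52%), beside 1.69% (1.53 to 1.88%) of all protein-coding genes. Hosts are counted as defined above, so Bcl2l1 is among them though its region lay 23001 bp inside the RefSeq end. Among genes that also had a reproducible promoter region, 15 of 295 listed genes (5.08%, 3.11 to 8.22%) and 199 of 8113 protein-coding genes (2.45%) were hosts. The 6 lists of NK cell genes, from receptors to migration, held 7 hosts among 152 genes (4.61%). The lists were drawn up with earlier results of these data known, so the higher share was not tested. They hold genes chosen for roles in immune cells, and also ribosomal, chromatin, RNA decay, and liver and neuronal genes. Leaving out 1 experiment changed the count of listed hosts to 18 without experiment 1, 19 without experiment 2 and 16 without experiment 3.

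Receptor signalling genes gave 3 of 27, with Grb2 and Sos1 among them. Grb2 encodes the adaptor that links receptors to the Ras activator encoded by Sos1. Grb2 had a region 522 bp past its end with folds of 4.63, 7.71 and 12.3, which differ by more than 2-fold between experiments. Its other region, 2696 bp past the end, was even across experiments at 5.89, 5.82 and 5.93. The Sos1 region had folds of 3.18, 6.46 and 3.56.

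The NF-kB and TNF list gave 3 of 25, Nfkb1, Tnfrsf1b and Traf1. Nfkb1 encodes the p105 precursor of an NF-kB subunit, and its 3′ UTR region had folds of 9.61, 4.73 and 10.97. It had rank 2 among 10 regions around the gene, behind a distal region 4878 bp past the end at 11.6, 15.4 and 11.8. Tnfrsf1b, a TNF receptor gene, had 4.34 in experiment 1 and 5.24 in experiment 3. Traf1, a signalling adaptor of TNF receptors, had 5.20, 4.74 and 3.72.

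RNA decay and 3′ end processing genes gave 3 of 30, Zfp36l2, Zfp36 and Cstf1. Zfp36 and Zfp36l2 encode related zinc finger proteins that bind AU-rich elements and speed the decay of cytokine mRNAs. Zfp36l2 was 1 of the genes with 3 gene-end regions, at 279, 2024 and 2918 bp past its end. The outermost had folds of 12.0, 17.3 and 8.19, the middle one 8.50, 6.03 and 4.96, and the innermost 5.95 and 5.64 with no peak in experiment 1. Both promoter regions of Zfp36l2 had lower mean folds, 5.48 and 4.20, than the outermost region. The Zfp36 region had 5.04 in experiment 1 and 3.54 in experiment 3. At Zfp36 the order was the other way, with a mean of 4.29 at the gene end and 8.98, 9.14 and 12.2 at its promoter regions. Cstf1 encodes a subunit of the cleavage stimulation factor, and its 3′ UTR region had 4.30, 7.32 and 3.90. The mean of that region, 5.18, was also under the 5.62 of the Cstf1 promoter region.

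Transcription factors of NK cells and type 1 innate lymphoid cells gave 2 of 38, Ikzf3 and Bhlhe40. Ikzf3 encodes Aiolos, an Ikaros-family factor of lymphocytes. Its region 575 bp past the end (chr11:98463682-98464389) had folds of 13.7, 12.4 and 9.28 and was the strongest of 9 around the gene, above its promoter region at 5.10, 5.02 and 4.10. A weaker 3′ UTR region of Ikzf3 had 4.46 and 3.71 in experiments 2 and 3. Bhlhe40, a basic helix-loop-helix repressor gene, had a 3′ UTR region at 7.81, 5.36 and 4.797, under its promoter region at 25.02, 29.7 and 18.95. The order of gene end and promoter was thus opposite at these 2 genes.

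Among the other listed genes, Socs3 was the only host of 32 in the cytokine receptor list, and Bcl2l1 of 30 in the cell cycle and survival list. Socs3 encodes a feedback inhibitor of cytokine receptors, and its 2 regions had folds of 4.05, 3.48 and 6.58, and of 2.93, 5.02 and 5.04. Their means, 4.70 and 4.33, were under the 5.74 of the Socs3 promoter region. Bcl2l1 encodes the survival protein Bcl-xL, and its region had 11.1, 14.9 and 9.49. That region lay 23001 bp inside the RefSeq end, so the deposited 3′ UTR label and the RefSeq gene end do not coincide there. Selplg (a selectin ligand, 1 of 23 migration genes) and Dusp5 (a MAP kinase phosphatase, 1 of 31 kinase pathway genes) were found in experiments 2 and 3 only, with folds from 4.29 to 4.94.

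No gene-end region was found in 6 lists, at 0 of 22 cytotoxic genes, 0 of 14 cytokines and chemokines, 0 of 29 cytosolic ribosomal proteins, 0 of 12 B cell genes, 0 of 17 myeloid genes and 0 of 19 liver and neuronal genes. Promoters in the deposited annotation reach 3000 bp from a start, so a gene no longer than 3000 bp has its end in the promoter class. Places farther past the end of such a gene can still be in the downstream class, as at Zfp36, which is 2444 bp long. Such short genes were 5 of the 14 cytokines, 9 of the 29 ribosomal proteins, 7 of the 17 myeloid genes and 1 of the 22 cytotoxic genes, beside 14.6% of all protein-coding genes. At the background share of 1.69%, lists of this length would hold under 1 host each, so 0 is not apart from the background.

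T cell genes gave 2 of 18, the neighbours Cd3d and Cd3e, which encode chains of the T cell receptor complex. The Cd3d region lay in its 3′ UTR, 421 bp inside the end (chr9:44986365-44986897), with folds of 12.7, 5.87 and 9.82. The Cd3e region lay 348 bp past the end, with 4.05, 7.14 and 8.60. Each was the only reproducible region of its gene. Binding is measured over all cells in a culture, so a site used in few cells and weak binding in all cells cannot be told apart, and the purity of the cultures was not measured in these lists.

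**Figure D2:**
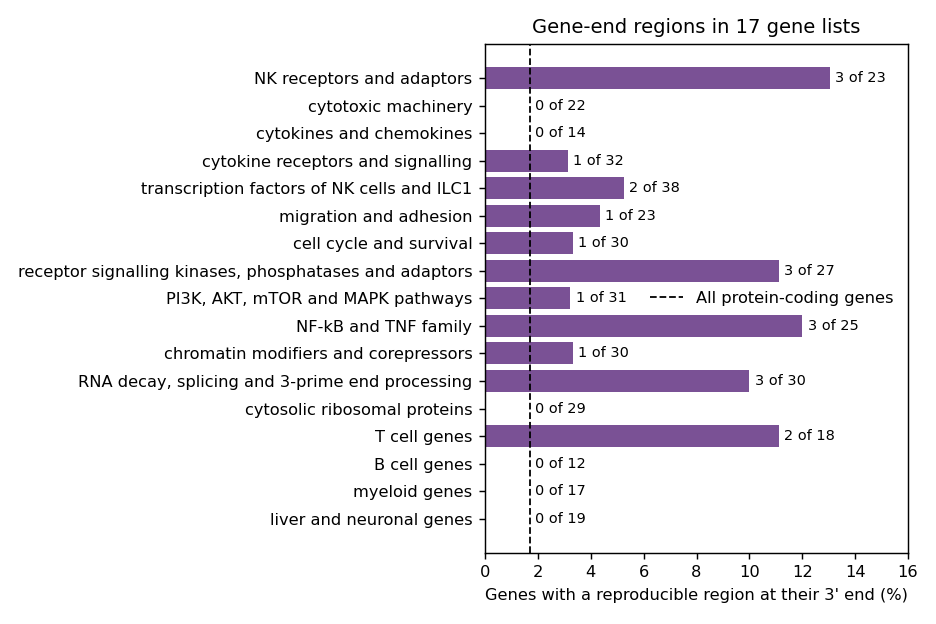
Share of protein-coding genes in each of 17 gene lists that are hosts of a reproducible gene-end region (percent), with the number of genes beside each bar and the share of all protein-coding genes as a dashed line. NK receptors are highest at 3 of 23, and 6 lists have none.

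The gene named by nearest start and the host gene were often different. They were the same for 208 of 394 regions (52.8%, 47.9 to 57.7%) and differed for 186. Without experiment 3 they differed for 52.7% of regions, so the majority turned. Agreement was 46.7% in the 3′ UTR class (105 of 225) and 60.9% in the downstream class (103 of 169). Where the region lay upstream of the nearest start, 91 of 97 had a different host, and where it lay downstream, 202 of 297 had the same. In 95 regions the assigned gene was the next gene beyond the end of the host, and in 48 of these both genes ran in the same direction. By nearest start 300 of 21883 protein-coding genes had a gene-end region (1.37%), beside 1.69% by host.

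Several lymphocyte genes entered only through their start. Smad7 was assigned the Ctif region described above. Irf4, which encodes a lymphocyte transcription factor, was assigned a pair of regions 64241 and 65055 bp past its start. The farther one, in the 3′ UTR class of Exoc2, had folds of 13.2, 8.46 and 8.88, and the nearer one, without a host, had 6.08, 6.53 and 11.3. Nfil3, a transcription factor needed for NK cell development, was assigned a region in the 3′ UTR class of Ror2, 128595 bp upstream of its start, with 3.14, 4.35 and 5.70. Socs1, a feedback inhibitor of cytokine signalling that is named here after its values were seen, was assigned regions in the 3′ UTR class of Clec16a with mean folds of 4.17 and 3.27.

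A few strong regions outside the lists were picked out after their values were seen. A region 2444 bp past the end of Il9, a cytokine gene of innate and helper lymphocytes, had folds of 14.2, 8.37 and 12.8 and was the only reproducible region around Il9. A region 1938 bp past the end of Dad1 (chr14:54233297-54233797) had 8.11, 8.08 and 17.1 and was assigned to Trac, the constant segment of the T cell receptor α chain, 12797 bp from that start. Fes, a tyrosine kinase gene of haematopoietic cells, had 10.4, 6.50 and 9.49. The lowest value at each of these 3 regions was in experiment 2.

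Measured from the host's RefSeq end, the regions lay on both sides of it. The median was −219.5 bp, just inside the gene, with quartiles at −1612.5 and 1198.25 bp. The 3′ UTR class had its median at −1264 bp and the downstream class at 1359 bp, which follows from how they were labelled. Within 1 kb of the end lay 160 of 394 regions (40.6%), and within 3 kb lay 325 (82.5%). Another 59 regions, all labelled 3′ UTR, lay over 3 kb inside the host, the farthest 202352 bp. For these the deposited label and the RefSeq end do not coincide, as at Bcl2l1.

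**Figure D3:**
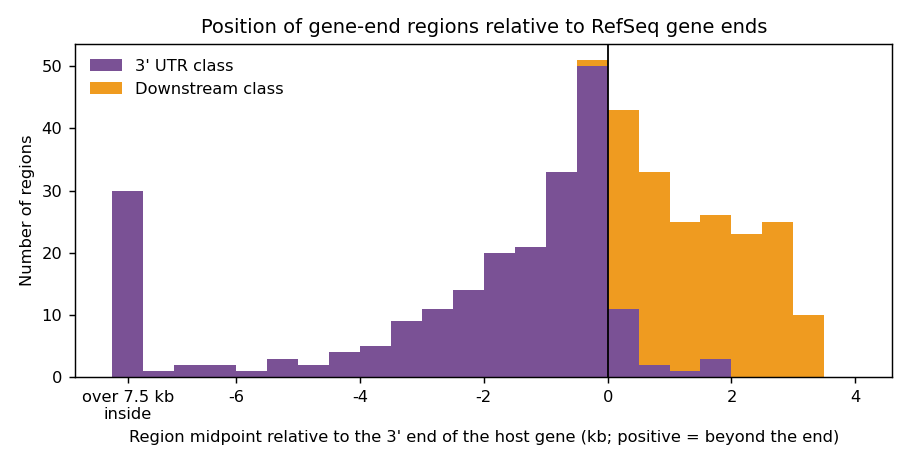
Number of gene-end regions by the distance of their midpoint from the 3′ end of the host gene (kb, positive beyond the end), stacked by deposited class. The counts peak on both sides of the end, and the leftmost bar collects the regions farthest inside their host.

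Few of the regions lay near a RefSeq gene start. This follows in part from the rule, since places within 3000 bp of a deposited start are labelled promoter. A RefSeq start lay within 3 kb of 17 of 409 regions (4.16%), and 5 overlapped one, those of Exosc6, Gm31125, Ndst2, Zfp14 and Brd3os. The distance to the nearest deposited start ran from 3006 to 247556 bp with a median of 7868 bp, and 318 regions lay downstream of it and 107 upstream.

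The hosts were longer than protein-coding genes in general, with a median length of 26574 bp against 17709 bp. Genes no longer than 3000 bp (14.6% of all) have their ends in the promoter class, though places farther past the end can still count. Zfp36, 2444 bp long, is a host in this way. A host of the 3′ UTR class may also be overlapped anywhere along its length. How far these points shape the difference in length was not tested. The next gene past the end ran in the same direction for 48.3% of 348 hosts (43.1 to 53.5%) and for 55.7% of 20569 protein-coding genes. The median gap to that gene was 15997 bp for hosts and 16653 bp for all. A reproducible promoter region was assigned to 199 of 349 protein-coding hosts (57.0%, 51.8 to 62.1%), beside 39.4% of all protein-coding genes with a known strand. Seen from the promoter side, 2.45% of genes with a promoter region and 1.20% of those without one were hosts. These are descriptions of gene sets and were not tested, and gene length moves with them.

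Within the host and 10 kb to either side, the median number of reproducible regions was 3. The gene-end region was the only one at 73 of 394 regions, as at Cd3d, and the strongest of several at a further 90, as at Ubald2, Pdcd1 and Ikzf3. At the remaining regions another site of the locus had the higher mean fold, as at Bhlhe40. A reproducible neighbour lay within 10 kb of 55.3% of gene-end regions and 52.1% of the other reproducible regions.

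**Figure D4:**
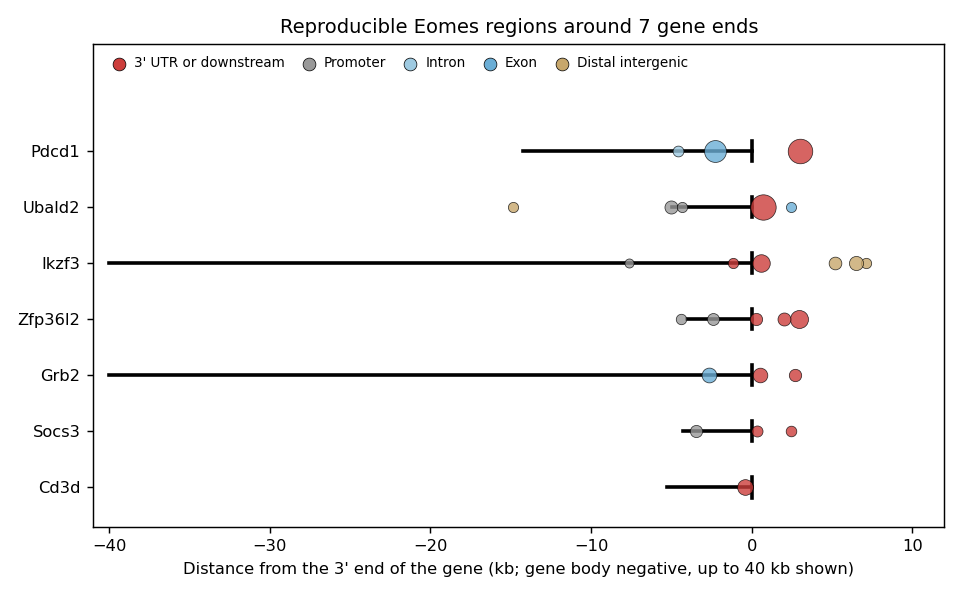
Reproducible Eomes regions around the 3′ ends of 7 genes (distance from the end in kb, gene body as a black line drawn to the left of 0 and cut where the gene is longer than the axis), with dot area in proportion to mean fold and colour for the deposited class. The gene-end dot is the largest at Pdcd1, Ubald2, Ikzf3 and Zfp36l2, and it is alone at Cd3d. Regions beyond the axis are not drawn, among them the promoter regions of Ikzf3 and Grb2. The promoter dot in the row of Ikzf3 is a region assigned to Gm25106.

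Fold enrichments at gene ends were similar to those at the other reproducible regions. The median was 4.62 against 4.62 in experiment 1, 4.97 against 5.17 in experiment 2 and 4.74 against 4.97 in experiment 3. Median pileup was 15 and 15, 12 and 13, and 19 and 20 fragments in the same order. Gene-end regions were narrower, with a median width of 358 bp (165 to 1303 bp) against 401 bp. Over the 196 regions in all 3 lists, the Spearman correlation of fold across regions was 0.52 between experiments 1 and 2, 0.66 between 1 and 3 and 0.61 between 2 and 3, where regions are not independent replicates. The share found in all 3 lists was 46.1% for gene ends, 55.4% for promoters, 46.4% for introns, 45.6% for distal regions and 36.9% for exons.

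The number of lists with a peak follows in part from the rule itself, so detection was also counted in an experiment that had no part in choosing the regions. Gene-end regions were taken from 2 lists and looked for in the third. They were found again in 196 of 272 cases (72.1%) in experiment 1, 197 of 313 (62.9%) in experiment 2 and 189 of 226 (83.6%) in experiment 3. Other reproducible regions were found in 71.1, 71.0 and 88.6%, and regions of every class combined in 71.2, 70.8 and 88.5%. The difference between gene ends and the others was 0.915, −8.04 and −4.97 percentage points, a mean of −4.03 ± 4.55 (SD, n = 3, exact sign-flip permutation test, 2-sided, p = 0.5). With 3 pairs the smallest p of this exact permutation test is 0.25, and the pairs share lists, so they are not independent.

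Against single classes, the mean difference was −6.86 ± 6.74 percentage points from promoters (exact permutation p = 0.5), 8.71 ± 6.14 from exons (exact p = 0.25), −0.36 ± 1.79 from introns (exact p = 0.75) and 0.338 ± 0.362 from distal regions (exact p = 0.5), each over 3 pairs. Gene ends were higher than exons in 3 of 3 experiments, by 2.51 to 14.8 percentage points, where the exact p of 0.25 is the smallest this design can give. In experiment 2 the 3′ UTR class, at 60.5%, was level with exons, at 60.4%, and the downstream class was at 65.8%. In experiments 1 and 3 the 3′ UTR class was at 67.8 and 83.5%, and exons were at 57.3 and 74.8%. Where a region was found again, its median fold in that experiment was 5.03 at gene ends and 4.95 elsewhere in experiment 1, 5.38 and 5.60 in experiment 2, and 5.77 and 5.76 in experiment 3. These values differed by less than the spread between experiments.

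**Figure D5:**
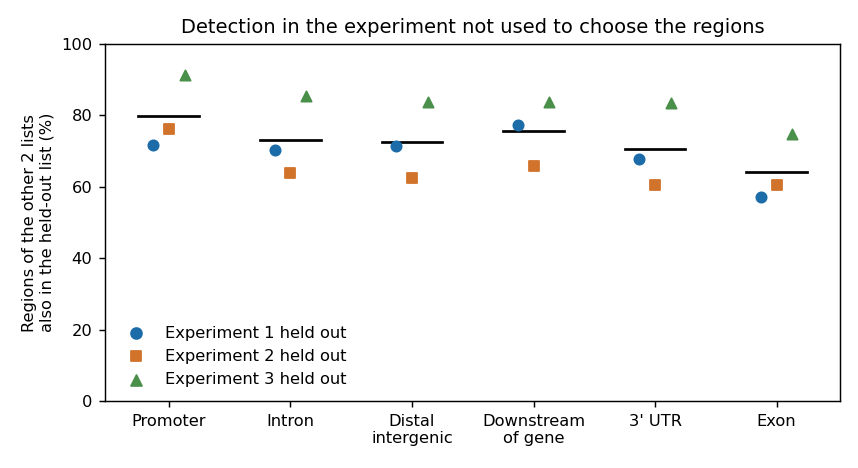
Share of regions chosen from 2 lists that also had a peak in the third (percent), by deposited class, with 1 point per held-out experiment and the mean of the 3 as a bar. Experiment 3 is highest in each of the 6 classes drawn, and the means of both gene-end classes lie between those of exons and promoters.

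At the edge of the rule stood weak regions in 2 lists and strong peaks in 1. The 3 regions in 2 lists with the lowest mean fold were those at Lars2 (1.94 and 2.12), at AC149090.1 (2.01 and 2.47) and at Gm13403 (1.99 and 2.69). Just outside were peaks of experiment 2 alone at Tmem170 with a fold of 19.2, Ssh2 with 12.1 and Pdlim7 with 9.48. In all, 2231 gene-end regions had a peak in 1 list. The median of mean fold was 5.78 for regions in 3 lists, 4.26 for those in 2 and 3.90 for those in 1.

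Part of the set rests on high background. In 11 of the 425 regions (2.59%) the background recovered from pileup and fold exceeded 10 fragments in every list with a peak, beside 0.675% of the other reproducible regions. These comprised 8 regions on 1 unplaced scaffold, all assigned to AC149090.1, and those at Hjurp, Gm13403 and Lars2. Their pileups were high, from 25 to 113 fragments, and their mean folds low, with a median of 2.34 and a maximum of 3.46. That scaffold held 46 reproducible regions in all. Without these 11 the set had 414 regions, and without unplaced scaffolds 417.

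Some genes held several gene-end regions. Besides Zfp36l2 and AC149090.1, Wbp1l and Vps37b had 3 each, which lie near one another and share a host. The Wbp1l regions, in its 3′ UTR class and assigned to Cyp17a1, had mean folds of 5.48, 5.16 and 4.66. The Vps37b regions, assigned to Hip1r, had 5.66, 4.76 and 3.37, and Vps37b encodes a subunit of the ESCRT-I sorting complex. By chromosome the regions were most frequent on 11 (41), 2 (40) and 5 (34). These counts were not set beside all reproducible regions or genes of those chromosomes, so they may only mirror them. On X lay 1 region (0.235%, beside 0.721% of the other reproducible regions).

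The class of a region depended on the row chosen to represent it in few cases. In 385 regions every contributing row was annotated to a gene end, and in 40 some row had another class, an exon in 20, an intron in 9, a distal position in 7 and a promoter in 4. A further 28 reproducible regions held a gene-end row under another leading class and are not among the 425.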

How the data were processed

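Peaks of 3 Eomes IP libraries, each called against the input of its own experiment, were used as deposited, 1 list per experiment. Novoalign, ChIPseeker and mm10 are named in the submitters' processing notes, without versions. The sources used here give neither the peak caller nor library depths. The deposited pileup is a signal in fragments at the summit, read so from its column name, and the deposited fold is a ratio of IP to the authors' local background. Each peak's −log10 p-value and its −log10 q-value, the latter at least 1.30, are the authors' scores. Folds and scores describe peaks within their own list and were not rescaled between lists.

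Rows of 1 interval were collapsed, intervals sharing at least 1 bp were merged (checked against bedtools 2.31.1), and the class came from the row with the largest pileup. Background was taken as (pileup + 1) divided by fold, less 1. Host genes came from the RefSeq table of GRCm38.p6, the assembly that mm10 names, with strand from its promoter table or the lists. Shares carry 95% Wilson intervals, which cover counting error only. Held-out detection was compared with an exact sign-flip permutation test over 3 pairs. The counting of held-out detection, but not the permutation test, was tested on simulated data. The labels call the 3 experiments separate, without saying how the mice were divided, so p-values measure only the spread between these libraries.

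Named regions were the 10 in 3 lists with the lowest mean rank of fold, up to 30 that touch a listed gene, genes with 3 or more regions, and 3 on each side of the threshold. Some regions that meet this rule are not reported here. The regions and gene lists were chosen with earlier results of these data known. No genome was at hand, so a planned T-box search in the regions was not run, and only gene-start windows were read. Alternatives were a 100 bp overlap, class by q-value, a −log10 q-value of at least 3, and each experiment left out. Python 3.11.15, pandas 2.3.3, numpy 2.4.6, scipy 1.17.1 and matplotlib 3.10.9 were used.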

Additional observations from a re-analysis of the deposited data

How the results depend on the processing

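The count of gene-end regions was 280 when peaks needed a −log10 q-value of at least 3, and from 226 to 313 with 1 experiment left out, where the share of reproducible regions ran from 1.87 to 2.14% and protein-coding hosts from 185 to 264, partly because 1 list fewer can then supply a peak. A 100 bp overlap gave 392 regions and class by q-value 425. Settings chosen after seeing the data gave 417 regions without unplaced scaffolds and 414 without those of background above 10 fragments. Of 51 named regions, 46 were kept at the stricter q-value and 40 to 45 with 1 experiment left out. The held-out difference, itself designed after seeing the data, was −3.13 percentage points with the 100 bp overlap, −4.42 with class by q-value, −0.580 at the stricter q-value, −2.71 when weighted to the folds of gene ends and −4.38 without unplaced scaffolds (exact permutation p from 0.5 to 0.75). The share of regions whose nearest-start gene is not the host was 52.7% without experiment 3 and from 46.8 to 49.2% under the other settings. The T-box alternatives were not run, for want of a genome. No paired analysis was possible because the inputs, which share numbers with the IPs, enter the lists only through the authors' background and have no values of their own. The smallest pileups in the lists were 7 to 9 fragments, so places with fewer fragments are not seen.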
